A study of Arabidopsis thaliana with 12 samples.

Results

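STZ (also named ZAT10, AT1G27730), ZAT7 (AT3G46090), AT3G46080 and AT2G28200 are the C2H2 zinc finger genes described here, 4 of the 9253 genes that the annotation of the array assigns to a spot. They were chosen by symbol or locus, with earlier results of these data known. Each has 1 spot, and all 4 were among the 20072 genes and unnamed spots that passed a filter on the deposited ratios and were tested. The samples were rosette leaves of 3-wk-old Arabidopsis thaliana ecotype Columbia-0 (Col in the labels). The wounded sample was a pool of plants whose rosette leaves had been crushed with a hemostat 5 min before harvest, and the control was a pool of plants that were not wounded. There were 3 biological replicates, each such a pair of pools. Each pair was hybridised on 4 two-colour Agilent arrays, which gave 12 arrays. On 2 of the 4 the wounded RNA carried the red dye Cy5 (Cy5-wounded arrays), and on the other 2 it carried the green dye Cy3 (Cy3-wounded arrays). RNA was taken from whole leaves, so a change in the number of cells that express a gene and a change in the RNA per cell cannot be told apart.

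Plant proteins of the ZAT type carry a pair of C2H2 zinc fingers, with which they bind DNA, and many also carry a short EAR motif, through which they recruit co-repressors and lower transcription. STZ is known for a role in tolerance of salt, drought and strong light, and its protein is a substrate of stress-activated MAP kinases. ZAT7 is known for an EAR motif that its overexpression needs in order to raise salt tolerance. AT3G46080 lies 2 annotated genes from ZAT7 on the chromosome, and whether the spots of this pair of related genes share signal was not tested. AT2G28200 has no symbol in the gene table used here.

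Within 5 min of wounding STZ, ZAT7 and AT3G46080 were higher and AT2G28200 was lower. Of the 4 genes, 3 rose and 1 fell at an adjusted p under 0.05, while 7.25% of all features tested rose and 7.24% fell (14.5% in either direction). Because the 4 were chosen with earlier results known, their count is no test against these shares. STZ rose by a fold change of 7.68, ZAT7 by 1.76 and AT3G46080 by 1.66, and AT2G28200 was left with 0.684 of its level. STZ alone also met the study's own threshold, at least 2-fold with an unadjusted p of at most 0.01, which 0.643% of all features met upward. The test was limma on the log2 ratio of wounded over not wounded, with 1 value per biological replicate.

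STZ was the gene with the second highest log2 ratio among named genes and the fifth highest of all 20072 features. Its processed signal in the pools that were not wounded was 863, 1131 and 838 in replicates 1, 2 and 3, as the geometric mean of the 4 arrays. In the wounded pools it was 8062, 8707 and 5280. The groups of pools did not overlap, and the lowest wounded pool lay far above the highest control pool. Wounded pools stood apart in this way for 4.7% of all features upward and 2.5% downward. Before wounding, replicate 2 had the highest STZ signal of the 3, and after wounding replicate 3 had the lowest.

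The log2 ratio of STZ was 3.22, 2.94 and 2.66 in the 3 replicates, with a mean of 2.94 ± 0.28 (SD, n = 3; adjusted p = 0.0047 from limma). Its 95% interval ran from 2.63 to 3.26. On single arrays the log2 ratio was between 2.40 and 3.30, and it was above 0 on 12 of 12, as it was for 7.47% of all features. STZ had the smallest difference between dye orientations of the 4 genes, averaging 2.91 over the Cy5-wounded and 2.98 over the Cy3-wounded arrays (adjusted p = 0.70 for the difference, from limma on the 12 arrays). The small mean difference averages splits of opposite sign. In replicate 2 the Cy5-wounded arrays were higher, at 3.12 and 3.03 against 2.86 and 2.77, and in replicate 3 they were lower, at 2.40 and 2.41 against 2.98 and 2.84.

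**Figure D1:**
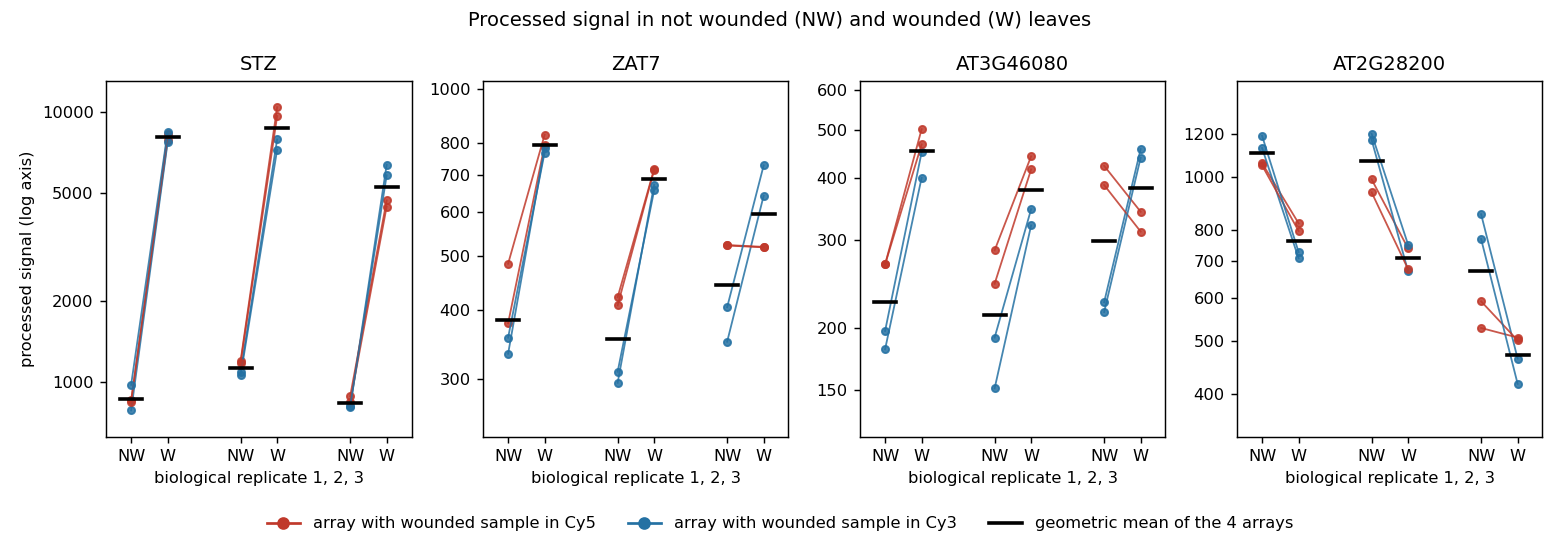
Processed signal (log axis, 1 panel per gene with its own scale) of not wounded (NW) and wounded (W) leaves in biological replicates 1, 2 and 3. Each line is 1 array, red if Cy5-wounded and blue if Cy3-wounded, and black bars are geometric means of the 4 arrays of a replicate. For STZ every line climbs steeply, while for ZAT7 and AT3G46080 the red lines of replicate 3 are flat or fall and the blue ones climb.

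ZAT7 rose by much less than STZ. Its signal was 384, 354 and 443 in the pools that were not wounded and 792, 689 and 595 in the wounded pools. These groups did not overlap, as was so upward for 4.7% of all features. Replicate 3 had the highest control signal and the lowest wounded signal, and so the smallest rise. The log2 ratio of ZAT7 was 1.05, 0.96 and 0.43, with a mean of 0.81 ± 0.34 (SD, n = 3; limma, adjusted p = 0.029) and a 95% interval of 0.45 to 1.17.

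The rise of ZAT7 was found on 10 of 12 arrays. The other 2 were the Cy5-wounded arrays of replicate 3, where the not wounded and wounded signals were 522 and 518 on one and 523 and 519 on the other, a log2 ratio of -0.01 on each. On the 2 arrays of replicate 3 with the dyes exchanged, the wounded signal was 642 and 728 against 350 and 404, and the log2 ratio was 0.88 and 0.85. Both technical replicates of a dye orientation thus gave nearly the same value, and the orientations differed. Cy5-wounded arrays also gave the lower ratio in replicates 1 and 2, by less: Cy5 minus Cy3 was -0.25, -0.35 and -0.87 in the 3 replicates.

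AT3G46080 followed ZAT7 closely. Its signal was 225, 212 and 298 in the pools that were not wounded and 453, 378 and 383 in the wounded pools. Again there was no overlap, as upward for 4.7% of all features. The log2 ratio was 1.01, 0.83 and 0.36, with a mean of 0.73 ± 0.34 (SD, n = 3; limma, adjusted p = 0.036) and a 95% interval of 0.37 to 1.10. As for ZAT7, replicate 3 was the lowest and 10 of 12 arrays were above 0.

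On the 2 Cy5-wounded arrays of replicate 3, AT3G46080 was lower in the wounded sample, with signals of 312 and 342 against 387 and 423, a log2 ratio of -0.31 on both. With the dyes exchanged, the same pair of pools gave 457 and 439 against 225 and 215, a log2 ratio of 1.02 and 1.03. In replicate 3 the sign of AT3G46080 thus differed between the dye orientations. In replicates 1 and 2 all 8 arrays were above 0, from 0.63 to 1.19. The control signal of AT3G46080 was 245 to 423 where the control was labelled with Cy3 and 151 to 225 where it was labelled with Cy5.

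AT2G28200 was the member that fell. Its signal was 1106, 1068 and 673 in the pools that were not wounded and 762, 709 and 471 in the wounded pools. These groups overlapped, because both pools of replicate 3 were dimmer than those of replicates 1 and 2, and the fall is seen only within a replicate. The log2 ratio was -0.54, -0.59 and -0.51, with a mean of -0.55 ± 0.04 (SD, n = 3; limma, adjusted p = 0.015) and a 95% interval of -0.70 to -0.40. The SD between replicates was the smallest of the 4 genes, against a median of 0.12 over all features.

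AT2G28200 was lower in the wounded sample on 12 of 12 arrays, as were 6.73% of all features. Its log2 ratio ranged from -0.88 to -0.06. The fall was deeper on the Cy3-wounded arrays, with a mean of -0.77, than on the Cy5-wounded arrays, with a mean of -0.33. This gap was widest in replicate 3, where Cy5 minus Cy3 was 0.73, compared with 0.31 and 0.29 in replicates 1 and 2. Single arrays of AT2G28200 thus differed by more than the replicate means, which average over the dyes.

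**Figure D2:**
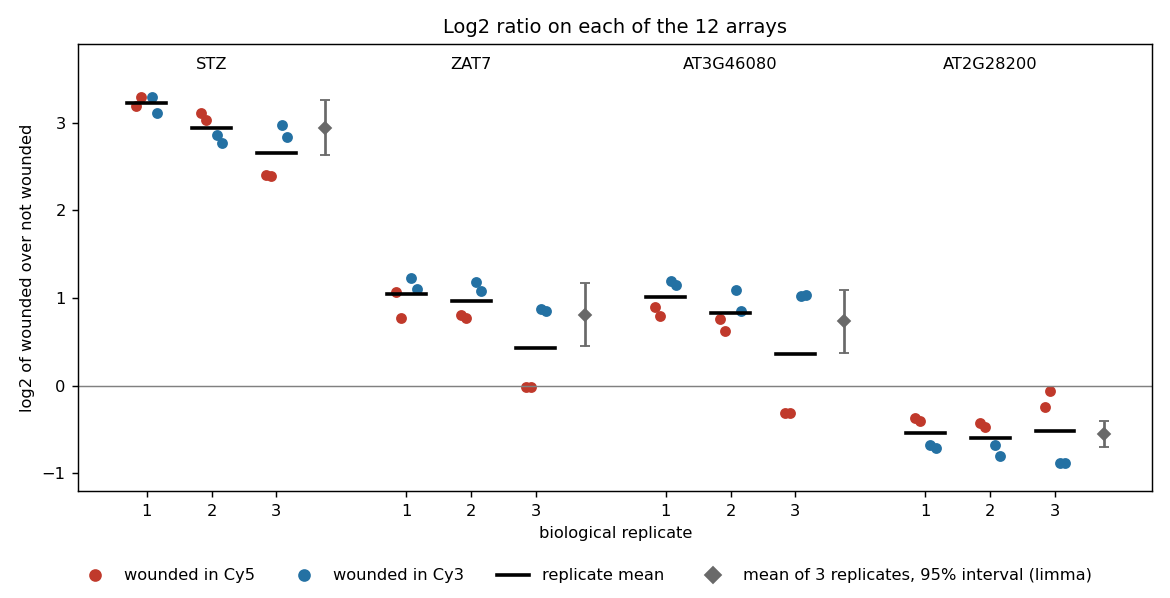
Log2 ratio of wounded over not wounded (vertical axis) on each of the 12 arrays, by gene and biological replicate. Points are arrays, red if Cy5-wounded and blue if Cy3-wounded, black bars are replicate means, and diamonds are means of the 3 replicates with their 95% interval from limma. STZ lies between 2.40 and 3.30, and the dye orientations of ZAT7, AT3G46080 and AT2G28200 are farthest apart in replicate 3.

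A dye term was fitted with limma to the 12 arrays, with the biological replicate as a random effect, and was called for 3 of the 4 genes. Such a term was called for 63.4% of all features, with a median size of 0.42, so that dye-dependent ratios were common on these arrays. It was -0.49 for ZAT7 (adjusted p = 0.016 from limma), -0.64 for AT3G46080 (adjusted p = 0.012) and 0.44 for AT2G28200 (adjusted p = 3.1e-04), as Cy5-wounded minus Cy3-wounded arrays on the log2 scale. Each replicate held both orientations equally, so the average over its 4 arrays balances a dye effect that is the same on all of them. For each of these 3 genes the gap was widest in replicate 3, as it was for STZ (-0.51). With the dye term in that fit the ratios for wounding were 0.81 for ZAT7, 0.73 for AT3G46080 and -0.55 for AT2G28200 on the log2 scale, with an adjusted p of 5.9e-05, 6.7e-04 and 4.9e-06 from limma. In the same fit 15.4% of all features were called higher and 15.2% lower. It counts the 4 arrays of a replicate, which share a pair of pools, as nearly separate (correlation 0.14), which makes p smaller. For these genes limma on the 3 replicate means gave an adjusted p of 0.029, 0.036 and 0.015.

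By the size of the log2 ratio the order was STZ, ZAT7, AT3G46080 and AT2G28200. STZ exceeded ZAT7 by 2.18, 1.98 and 2.23 on the log2 scale in the 3 replicates and on 12 of 12 arrays, with a mean difference of 2.13 ± 0.13 (SD, n = 3) and a 95% interval of 1.80 to 2.46. ZAT7 exceeded AT3G46080 by 0.04, 0.13 and 0.07 and on 8 of 12 arrays, with a mean difference of 0.08 ± 0.05 (SD, n = 3) and a 95% interval of -0.04 to 0.20, so these neighbours in the order did not differ beyond their spread. AT3G46080 exceeded AT2G28200 by 1.55, 1.43 and 0.87 and on 10 of 12 arrays, with a 95% interval of 0.39 to 2.17. On the Cy5-wounded arrays of replicate 3 AT3G46080 was the lower one, at -0.31 on both against -0.24 and -0.06. For each of the 6 differences between members the exact permutation test over 3 replicates (two-sided) gave p = 0.25, which is the smallest it can give.

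None of these levels was dim. A dim limit was set on each array as the signal below which 95% of the signals lay at spots whose deposited ratio is 0, and it was between 81 and 124. All 4 genes were above it in both channels of all 12 arrays. The lowest signal was that of AT3G46080 in a control, at 151. Changes are therefore not given as bounds here.

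The other tested genes of the ZAT family did not pass the test in either direction. Of 23 genes on a list of this class, 11 had a named spot and 9 passed the filter on the deposited ratios and were tested. The 4 described above were the only ones called, 3 higher and 1 lower. Among all named genes 8.26% were called higher and 7.89% lower. The median log2 ratio of the 9 tested genes was -0.05, beside 0.00 for all features. AT5G04390 had a log2 ratio of 0.06 ± 0.12 (SD, n = 3), AT3G60580 one of -0.05 ± 0.06, and AT3G10470 one of -0.08 ± 0.20. AT2G45120 had -0.09 ± 0.17 and AT1G26610 had -0.12 ± 0.19. The adjusted p of these 5 genes was between 0.43 and 0.64 from limma.

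The data limit what can be said of those 5. On 11 of 12 arrays AT5G04390 had a control signal under the dim limit, and AT3G10470 had one on 8. AT2G45120 averaged -0.64 over the Cy5-wounded and 0.46 over the Cy3-wounded arrays, and AT5G04390 had -0.45 and 0.58. The 95% interval of AT2G45120 ran from -0.31 to 0.13 and that of AT3G60580 from -0.20 to 0.11, both below the mean of ZAT7. AT3G53600 and AT1G49900 had a spot that did not pass the filter on the deposited ratios. The other 12 genes of the list, which include ZAT12 and AT5G04340, had no named spot and were not analysed here. The paper lists ZAT12 among its rapid wound response genes and reports AT5G04340 as upregulated within 5 min of wounding.

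Other C2H2 zinc finger genes, whose proteins act mainly in development, were compared as a separate list of 44 loci. Of these 6 were tested, 0 rose and 0 fell at an adjusted p under 0.05 from limma, while 2 were lower at an unadjusted p under 0.05. Over all features 7.25% rose and 7.24% fell at the adjusted threshold, and 16.4% were lower at the unadjusted one, so that with 6 genes no departure from these shares can be read. All 6 mean log2 ratios were below 0, with a median of -0.13 beside 0.00 for all features, but single arrays were not uniformly lower. GIS, which promotes trichome formation on inflorescence organs, stood at -0.24 ± 0.18 in log2 terms (SD, n = 3; adjusted p = 0.14 from limma). SE (SERRATE), which acts in microRNA processing, had -0.21 ± 0.16 (adjusted p = 0.15 from limma). JKD (JACKDAW), a regulator of root patterning, had -0.13 ± 0.06 (adjusted p = 0.20 from limma). The control signal of JKD lay under the dim limit on 6 arrays and its wounded signal on 8. Its log2 ratio was -0.41 over the Cy5-wounded and 0.15 over the Cy3-wounded arrays, which the replicate means average. AT3G45260 had -0.13 ± 0.14 (adjusted p = 0.30), averaging 1.10 over the Cy5-wounded and -1.37 over the Cy3-wounded arrays.

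**Figure D3:**
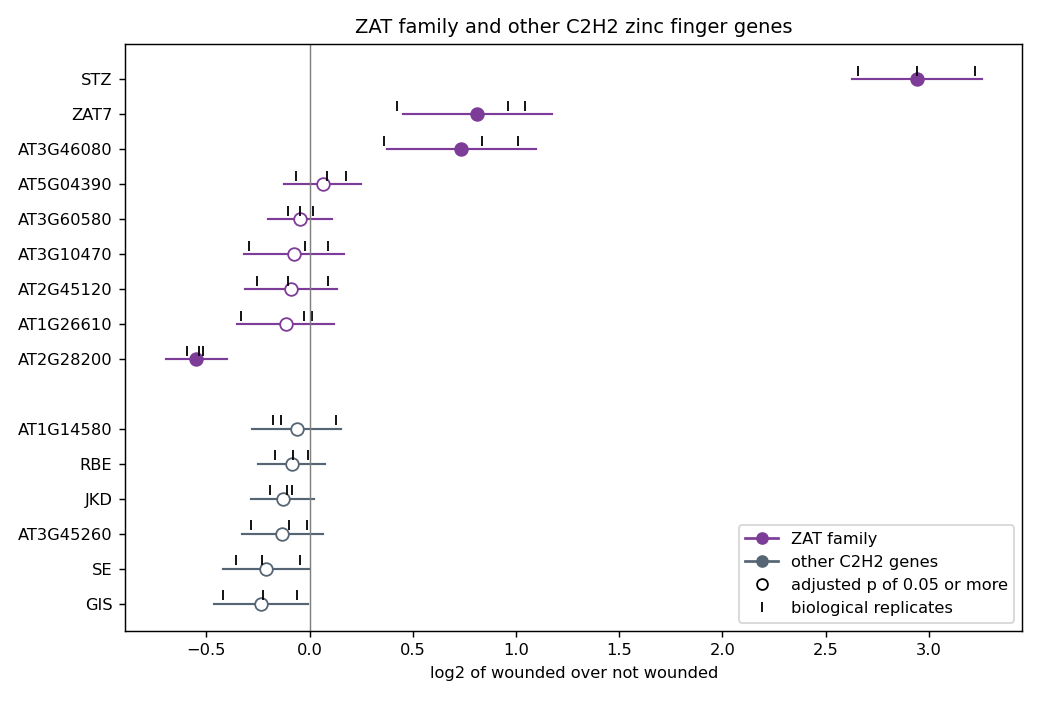
Log2 ratio of wounded over not wounded (horizontal axis) for the 9 tested genes of the ZAT family (purple) and the 6 other C2H2 zinc finger genes tested (grey). Circles are means of 3 biological replicates with their 95% interval from limma, open where the adjusted p was 0.05 or more, and ticks are the replicates. Only STZ, ZAT7, AT3G46080 and AT2G28200 have filled circles.

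Most of the listed genes that work with these proteins had no named spot in the annotation used here and were not analysed. None of the 8 listed EAR co-repressors and none of the 9 listed MAP kinase cascade genes had a named spot. The paper reports MPK3 and MPKK9 of this cascade as induced by wounding. Enzymes that scavenge reactive oxygen have been linked to STZ and ZAT12, and of 17 listed genes for scavenging or producing reactive oxygen 2 were tested. TAPX, the thylakoid ascorbate peroxidase, fell, its mean log2 ratio being -0.34 ± 0.12 (SD, n = 3; limma, adjusted p = 0.044) and was lower on 12 of 12 arrays. SAPX, the stromal ascorbate peroxidase, had -0.03 ± 0.26 (adjusted p = 0.88).

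Most tested genes close to STZ on its chromosome had a mean log2 ratio below 0. Of the genes up to 5 annotated genes away on either side, 6 were tested. AT1G27690 fell, its mean log2 ratio being -0.65 ± 0.07 (SD, n = 3; adjusted p = 0.014 from limma), and SAT32, a gene named for salt tolerance, fell with -0.48 ± 0.11 (adjusted p = 0.023). AT1G27700 was the one with a positive value, at 0.13 (adjusted p = 0.19), and AT1G27695, AT1G27710 and AT1G27750 had -0.15, -0.30 and -0.23 with an adjusted p of 0.50, 0.071 and 0.13.

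Around ZAT7 and AT3G46080 the other tested neighbours were close to 0. On the log2 scale AT3G46110 stood at 0.06 (adjusted p = 0.67 from limma) and the histone gene HTB11 had 0.06 (adjusted p = 0.65). Thus ZAT7 and AT3G46080 were the tested genes of this stretch that passed the test. No gene within 5 of AT2G28200 was tested.

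The named genes whose ratios were most like those of each member were found by the root mean square difference over the 12 arrays, on the log2 scale. These arrays share pools and dyes, and the likeness is a description. A gene chosen in this way tends to share the dye split of the member, because the split is part of the measure. Nearest to STZ was CML38, a calmodulin-like calcium sensor, at a root mean square difference of 0.25, with a log2 ratio of 2.96, 3.02 and 2.64 in the 3 replicates. AT5G17350 followed at 0.46, and AT3G04640, AT1G32920 and AT4G27280 at 0.88, 0.92 and 0.93. CML38 shared the split of STZ in replicate 3, at 2.16 on the Cy5-wounded and 3.12 on the Cy3-wounded arrays, while AT5G17350 had 2.56 and 2.45.

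Nearest to ZAT7 among all 8734 named genes tested was AT3G46080, at a root mean square difference of 0.17, with a largest gap of 0.30 on any array. The next were AT1G72900 at 0.23, AT5G59540 at 0.25, AT3G02840 at 0.27 and AT5G12940 at 0.29, none of which has a symbol in the gene table. Of these, AT1G72900, AT5G59540 and AT3G02840 were also near 0 on the Cy5-wounded arrays of replicate 3, at 0.10, 0.05 and 0.08, and at 0.97, 0.97 and 0.66 with the dyes exchanged. Nearest to AT3G46080 after ZAT7 were AT2G30600, AT5G12950 and AT5G59540 at 0.25 each, and AT3G19400 at 0.27.

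AT2G28200, with the 430th lowest ratio of all features, had genes closer to it than the other members had. AT3G13800, AT1G79510, AT1G48860, AT1G24610 and AT2G32040 lay at root mean square differences of 0.12 to 0.13, with log2 ratios of -0.57, -0.51, -0.54, -0.45 and -0.51. All 5 fell further on the Cy3-wounded than on the Cy5-wounded arrays, as AT2G28200 did, which their choice by likeness over these arrays favours.

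**Figure D4:**
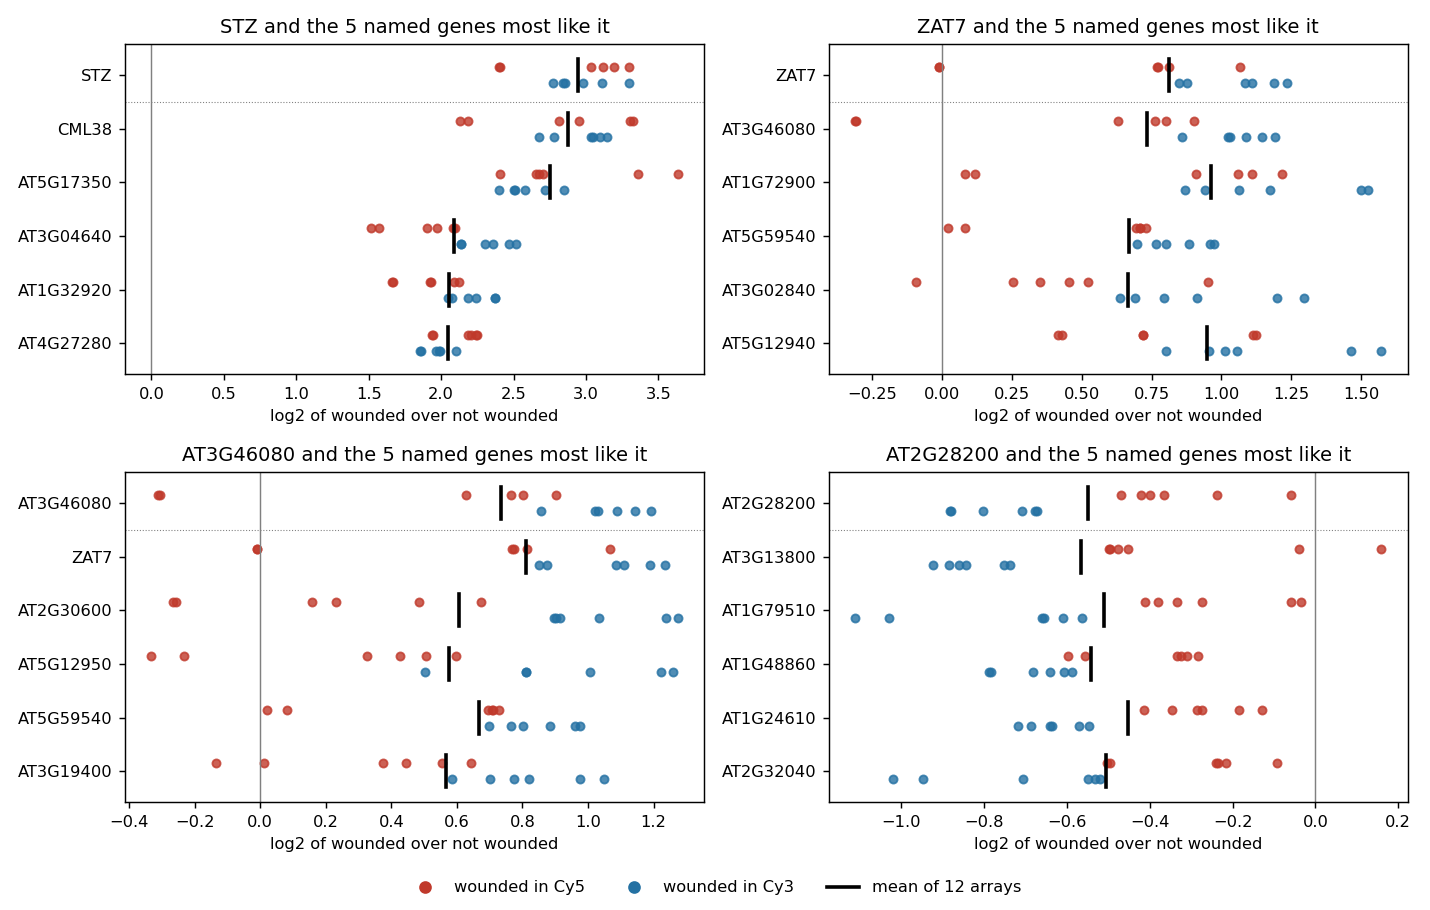
Log2 ratio of wounded over not wounded (horizontal axis) on the 12 arrays for each of the 4 genes (top row of a panel) and the 5 named genes with the smallest root mean square difference from it. Points are arrays, red if Cy5-wounded and blue if Cy3-wounded, and black bars are means of the 12 arrays. AT3G46080 and ZAT7 each have a pair of red points near or below 0, which are the Cy5 arrays of replicate 3.

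The tissue was checked on leaf genes. RCA, the Rubisco activase of chloroplasts, had a mean signal of 158009, and all 10 photosynthesis genes with a tested spot were above the dim limit in both channels of 12 arrays. Of these 10, 1 rose and 2 fell after wounding, beside 7.25% and 7.24% of all features. PORB, which acts in chlorophyll synthesis, rose by 1.21 on the log2 scale (adjusted p = 0.015 from limma). RCA fell by 0.45 (adjusted p = 0.041) and LHCB4.3, a light-harvesting protein gene, by 0.74 (adjusted p = 0.013), both on 12 of 12 arrays. Of 6 root genes 2 were tested, EXPA7 with a mean signal of 288 and AT3G01190 with 171. They had log2 ratios of 0.01 and -0.07 (adjusted p = 0.96 and 0.56 from limma), which average opposite values of the dye orientations. EXPA7 stood at -0.73 on the Cy5-wounded and 0.75 on the Cy3-wounded arrays, and AT3G01190 at -0.95 and 0.81. The phloem gene CYS1 had 0.01 (adjusted p = 0.97). Markers of guard cells, epidermis, flowers and seeds were not analysed here.

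How far each call held under other processing differed between the members. STZ was past an adjusted p of 0.05 under all 17 alternatives tried, ZAT7 and AT2G28200 under 12 each and AT3G46080 under 10, and no alternative turned the direction of any of them. Without replicate 1 the adjusted p from limma was 0.094 for ZAT7 and 0.099 for AT3G46080, without replicate 2 the p values were 0.11 and 0.12, and AT2G28200 had 0.091 without replicate 2 and 0.058 without replicate 3. Of all features 0.693% were called higher and 0.254% lower without replicate 2, against 7.25% and 7.24% as reported. The shares were 1.66% and 1.1% without replicate 3 and 7.37% and 8.38% without replicate 1. Without replicate 3, in which the dyes differed most, ZAT7 had a log2 ratio of 1.00 and AT3G46080 one of 0.92, and both passed (adjusted p = 0.021 and 0.029 from limma). Over the Cy5-wounded arrays alone, AT3G46080 stood at 0.41 in log2 terms (adjusted p = 0.27 from limma). Over the Cy3-wounded arrays alone it stood at 1.06.

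**Figure D5:**
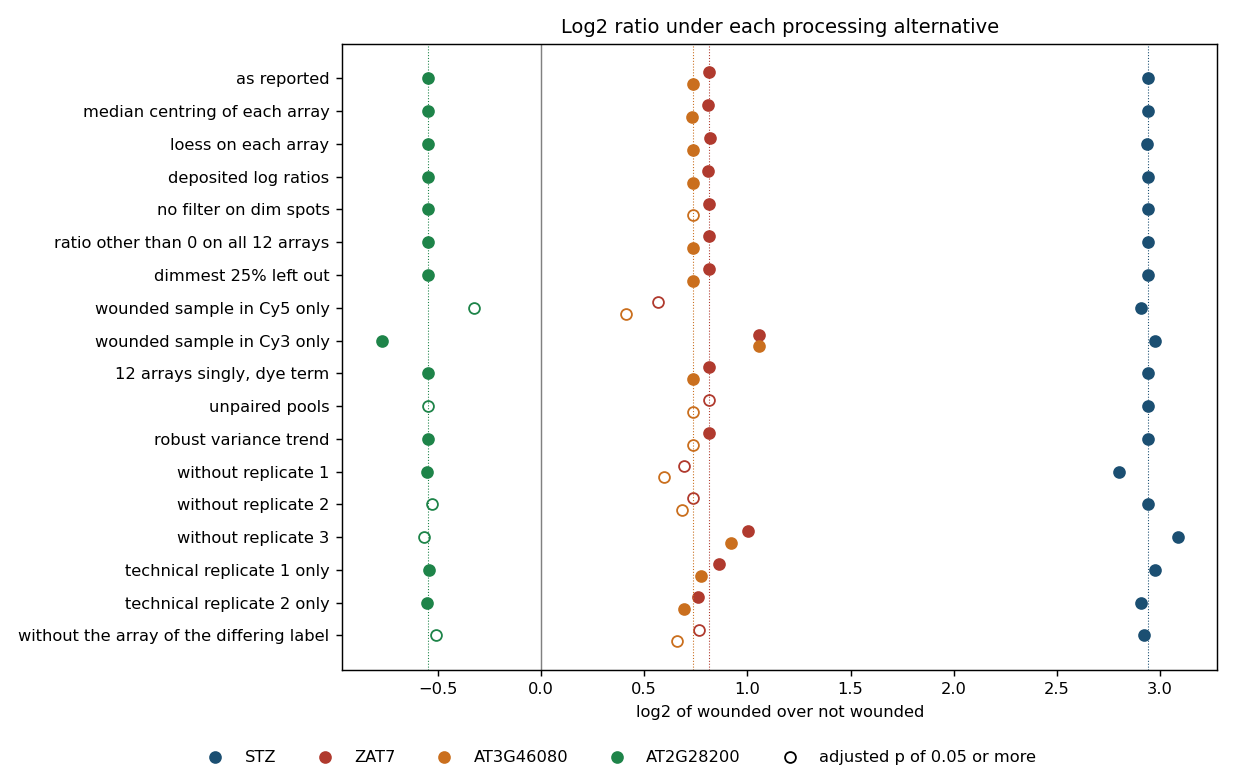
Log2 ratio of wounded over not wounded (horizontal axis) of the 4 genes as reported and under 17 processing alternatives (rows). Open circles have an adjusted p of 0.05 or more from limma, dotted lines mark the values as reported, and ZAT7 and AT3G46080 are drawn slightly above and below their row. STZ stays between 2.80 and 3.08 with filled circles throughout.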

How the data were processed

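The authors scanned the arrays and read them with Agilent Feature Extraction 8.1, and the deposited intensity of each dye is background-subtracted and scaled between dyes (on housekeeping genes, per the methods). The deposited log10 ratios of Cy5 over Cy3 match them (Pearson r of at least 0.9993 on each array) and served as an alternative. Background and saturation flags, slide and scan were not used here.

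Each array's dyes are those of its labels. For 1 array of replicate 3 title and channel label disagree on the number of the wounded sample, and the title was followed. The log2 ratios of a gene's spots and of a replicate's 4 arrays were averaged. Spots had to have a deposited ratio other than 0 on 1 or both arrays of all 6 dye-swap pairs. limma 3.58.1 (R 4.3.3) tested the 3 replicate means against 0, with Benjamini-Hochberg adjustment over 20072 features. The study's own p came from another error model. Replicates are pools of plants, and p-values of the fit to the 3 replicate means measure the spread between these.

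Genes were named from the platform annotation (9335 of 22575 spots have 1 gene) through a gene table of assembly TAIR10.1, which matched 9317 spots. Named in the text from these arrays are the members, all ZAT family genes with a named spot, of other lists at most the 4 genes of lowest p, tested genes within 5 of a member and the 5 genes most like each. Members and lists were chosen with earlier results of these data known. Annotation named no other C2H2 gene with a spot, so that list was written by locus afterwards. The 10 photosynthesis genes were taken by symbol. The fit was tested on simulated data. Alternatives were other normalizations, filters, variance models, dye orientations, units of replication and left-out replicates or arrays.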

Additional observations from a re-analysis of the deposited data

Results flagged for a closer look

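For 3 of the 4 members the log2 ratio differed with the dye of the wounded sample (adjusted p under 0.05 from limma on the 12 arrays). The mean over Cy5-wounded minus that over Cy3-wounded arrays was -0.49 for ZAT7, -0.64 for AT3G46080 and 0.44 for AT2G28200. For ZAT7 and AT3G46080 the difference was largest in replicate 3, at -0.87 and -1.33. Of the 47 genes named by rule, 30 showed such a difference, which is 63.8% beside 63.4% of all features.

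In the ZAT family the difference was also called for AT2G45120 (-1.10), AT3G60580 (0.55) and AT5G04390 (-1.04). Among other C2H2 genes it was -0.34 for GIS, -0.56 for JKD and 2.47 for AT3G45260, and it was -0.26 for TAPX. Among tissue genes it was -1.76 for AT3G01190, -1.48 for EXPA7 and -2.67 for the photosystem gene PSBW. Among chromosomal neighbours it was 0.72 for AT1G27690, -0.27 for AT1G27700, -0.76 for AT1G27710 and 0.88 for AT3G46110. The genes most like a member had -0.46 (AT3G04640), -0.32 (AT1G32920), -0.36 (AT5G59540), -0.51 (AT3G02840), -0.39 (AT5G12940), -0.87 (AT2G30600), -0.72 (AT5G12950) and -0.50 (AT3G19400). The 5 most like AT2G28200 had 0.53 (AT3G13800), 0.52 (AT1G79510), 0.28 (AT1G48860), 0.36 (AT1G24610) and 0.41 (AT2G32040), the sign that AT2G28200 also had. Their choice by likeness over the same arrays favours a shared sign.

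Among the 6 Cy3-wounded arrays, 1 array stood apart for AT3G10470, where the gap to the nearest array was 0.680 of the range. Chance gives such a gap in about 1 of 20 groups, 94 were examined, and this gene was dim.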

How the results depend on the processing

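The direction of all 4 members held under each of the 17 alternatives. Over the Cy5-wounded arrays alone, ZAT7 (0.57, adjusted p = 0.11), AT3G46080 (0.41, 0.27) and AT2G28200 (-0.33, 0.095) did not pass, all from limma. With pools as unpaired groups, which sets aside the pairing on each array, the same log2 ratios (0.81, 0.73 and -0.55) had an adjusted p of 0.42, 0.63 and 1.00, and 27 features in all were called. Without the array of the differing label, which leaves replicate 3 unbalanced in dye, they were 0.76 (0.099), 0.66 (0.14) and -0.51 (0.063). For AT3G46080 (0.73) the p was also above the threshold when spots that failed the filter were kept (0.051) and under a robust trend of the variance (0.053). With 1 replicate left out, STZ ranged from 2.80 to 3.08, ZAT7 from 0.69 to 1.00, AT3G46080 from 0.60 to 0.92 and AT2G28200 from -0.56 to -0.53.

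Of the ZAT family, 3 genes were higher and 1 lower as reported. Over the Cy5-wounded arrays alone 1 was higher (14.1% of all features), and over the Cy3-wounded arrays alone 5 were (19.2%), against 7.25% as reported. With unpaired pools, without the array of the differing label, and at 2-fold with p at most 0.01, 1 was higher and 0 lower, where 0.135%, 0.862% and 0.643% of all features were higher. With 1 replicate left out, 1 to 3 were higher and 0 to 1 lower. Of all features 7.37%, 0.693% and 1.66% were higher without replicates 1, 2 and 3 in turn, and 8.38%, 0.254% and 1.1% lower. Among other C2H2 genes, 1 was higher and 1 lower in either single dye orientation, and 2 were lower with the 12 arrays fitted singly. Of all features 15.7% and 16.1% were called lower in the single orientations and 15.2% with the 12 arrays. Only 3 replicates limit the precision of the means.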
